A study of Sus scrofa with 37 samples.

Results

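Cytosolic ribosomal protein (RP) genes were examined in peripheral blood mononuclear cells (PBMC) of growing pigs. A gene was included where its array symbol was RPL or RPS, with P for the stalk proteins, followed by a number. After it, only the letters A, X or L and a further number, as in RPL22L1, could follow. This rule used names and no measured difference between groups. It found 62 gene symbols with 199 probe sets among the 47845 probe sets and 13755 symbols of the array, and each gene was read from whichever of its probe sets was brightest on average over all 37 arrays. Of the 62, 38 belong to the large and 24 to the small ribosomal subunit. RefSeq gives RPS4 as another name of RPS4X, so the 62 symbols stand for 61 genes. RefSeq lists 82 pig symbols of this form, and the 21 with no probe set of that symbol, among them RPL22, RPL13A and RPL15, were not analysed here.

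The ribosome translates mRNA. Its small subunit reads the codons, its large subunit joins the amino acids and lets the growing chain leave through an exit tunnel. RP genes are transcribed strongly in every cell, and their mRNAs begin with a terminal oligopyrimidine (TOP) motif through which mTOR signalling controls their translation. Resting lymphocytes and monocytes enlarge their ribosome supply when they are activated, and mutations of several RP genes cause Diamond-Blackfan anemia in humans.

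The study asked how dietary phosphorus (P) acts on German Landrace piglets after weaning. Diets with low (L, 6 pigs, 3 female and 3 male), medium (M, 5 pigs, 3 female and 2 male) or high (H, 7 pigs, 4 female and 3 male) digestible P were compared at 63 days postnatum (dpn). The reference group R held all 19 arrays at 28 dpn (10 female and 9 male), taken before the diets began from 6 pigs assigned to L, 6 to M and 7 to H. Arrays at both ages exist for 18 of the 19 pigs, every array held RNA of a single pig, and all pigs were fed a cereal and soybean diet without added phytase. Each diet at 63 dpn therefore differs from R in age as well as in feed, and in each comparison with R diet and age cannot be told apart. The 3 comparisons share the R arrays, so their values are given side by side.

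Across the whole array, limma at P and q of 0.05 or less called 7 of 28086 probe sets in L against R, 5 in M and 588 in H. Array medians lay between 5.25 and 5.42 on the log2 scale. Lymphocyte and monocyte markers were present, with list means per array of 8.85 to 9.81 for 12 T cell, 7.93 to 9.37 for 9 B cell and 7.49 to 10.32 for 15 monocyte genes. So were 7 red cell genes (11.34 to 12.25), 9 platelet genes (5.08 to 8.62) and 6 neutrophil genes (7.32 to 8.70), although a density gradient should remove most red cells and granulocytes. Monocyte genes ran from 8.11 to 8.43 in L arrays, from 7.999 to 8.71 in M, from 8.15 to 10.32 in H, where pig 12 had the highest value, and from 7.49 to 8.96 in R. Of these 15 genes 2 were called higher in H than in R, CD14 by 0.78 and TYROBP by 0.77. In such mixed cells, fewer cells of a type and less RNA per cell cannot be told apart.

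RP genes were among the brightest on the array. Their median level was 8.87 on the log2 scale, against 5.33 over all probe sets that are no controls. A mean of 10 or more was reached by 23 of the 62 genes (37.1%), against 1.96% of all probe sets, and 8 genes exceeded 12. Each RP gene was read from its brightest probe set, whereas the probe sets of the whole array were not picked by level. Part of the excess therefore follows from that choice, and its size was not tested. RPL19, for example, entered at 8.73, while its 74 probe sets had a median of 4.03. The highest means belonged to RPS10 (12.91) and RPS12 (12.30) with RPS24 (12.29) of the small subunit, and to RPL35A (12.76), RPLP0 (12.70) and RPL8 (12.66) of the large subunit. RPLP0 anchors the stalk that recruits the translation factors, and RPL8 lies close to the site where peptide bonds form. Levels depend on the probes as well as on the mRNA and set no order of abundance between genes.

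A further 18 genes lay between 7 and 10, 16 between 5 and 7 and 5 below 5. The 5 low ones were RPL29 (2.67), RPL11 (3.15), RPS20 (3.74), RPS4X (3.95) and RPL10 (4.83), and RPL36A followed at 5.16. All of these are constitutive parts of the ribosome. The 69 background control probe sets had a median of 3.93, so 3 of the low genes were below that median, and 25 of the 62 genes lay above the highest of these controls at 9.46. For RPS4 and RPS4X, names of the same gene, the probe sets differed from 11.42 to 3.95.

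**Figure D1:**
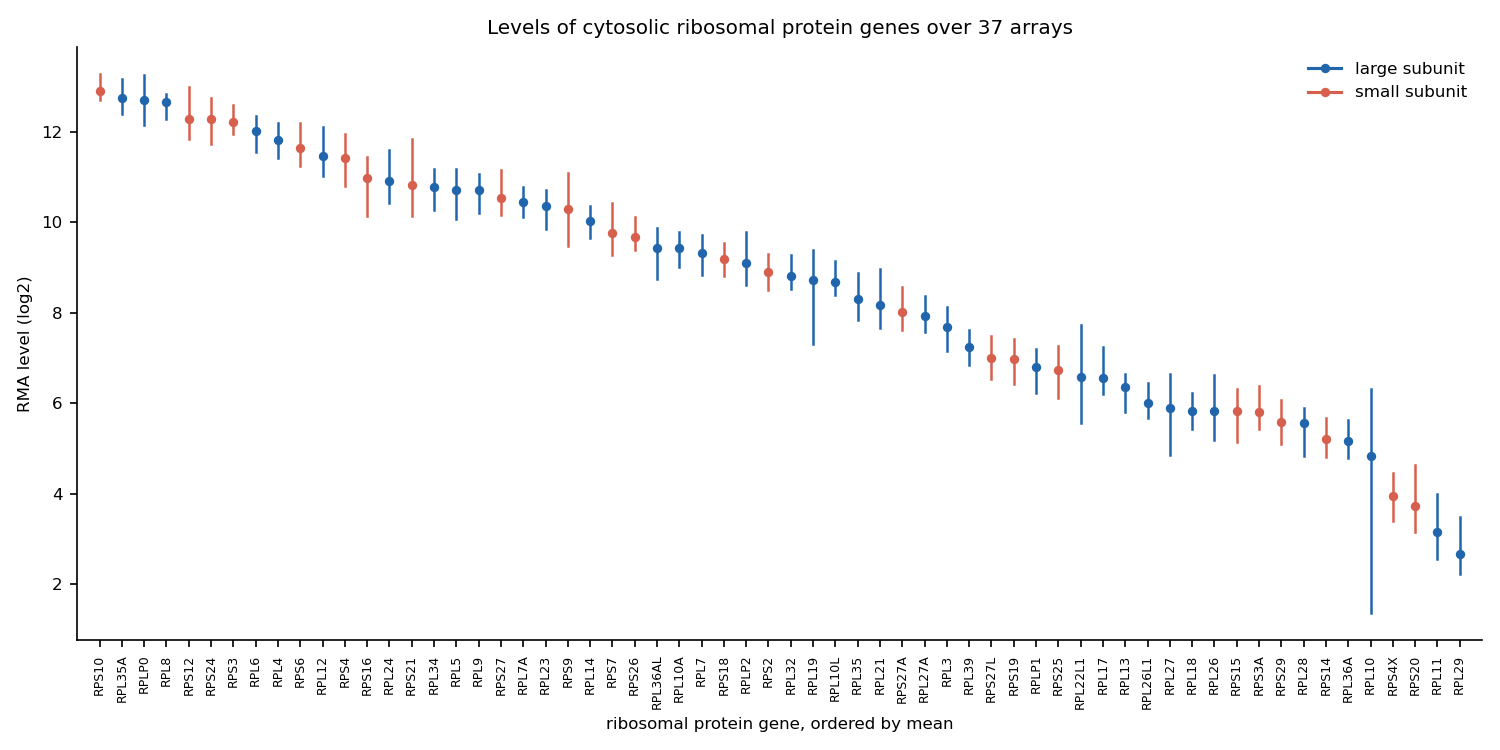
Mean RMA level on the log2 scale (points) with the range over all 37 arrays (lines) of the 62 RP genes, ordered by mean and coloured by subunit. Means ran from 2.67 for RPL29 to 12.91 for RPS10, and RPL10 had the widest range.

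Most RP genes varied little between arrays. The standard deviation (SD) over 37 arrays had a median of 0.21 for RP genes and of 0.26 for all probe sets. RP genes were brighter, with a median level of 8.87 against 5.33, and the SDs were not compared at equal level. Among RP genes the SD was lowest in RPS10 (0.11), RPL8 (0.12), RPS3 (0.14), RPL35A (0.15), RPL32 (0.15) and RPS26 (0.15). RPS3 and RPS10 line the path by which mRNA enters the small subunit. The study tested only probe sets with an SD above 0.23 and a mean above 2.5, which 23 of the 62 genes passed (37.1%, against 58.9% of all probe sets), and the 39 others all missed the SD. Values of these 39 genes come from a fit without that filter.

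The highest SDs were those of RPL10 (1.01), RPL22L1 (0.52), RPL19 (0.43), RPL27 (0.41), RPS21 (0.38) and RPS9 (0.35). RPL10 is inserted late into the large subunit and helps to form its active centre. Its levels in the 6 L arrays were 1.37, 2.70, 3.82, 5.27, 5.48 and 5.72, whereas the M arrays held 4.14, 4.66, 4.80, 5.24 and 5.42. H arrays ran from 4.13 to 6.31 with a median of 5.36, and R arrays from 3.68 to 6.14 with a median of 5.06. Only 2 L arrays lay below the lowest R array, and the log2 difference of L from R was -0.84 (SE 0.41, limma q = 0.463).

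RPL19, which lies beside the exit tunnel, had 74 probe sets under its symbol, whereas no other RP gene had more than 8 and 24 had 1. The 74 probe sets ran from 1.55 to 8.73 in mean level with a median of 4.03. Over 37 arrays, the correlation between pairs of them had a median of 0.0170, a description over probe sets of the same arrays. What each RPL19 probe set measures was not tested. RP genes have many processed pseudogene copies in mammals, and how far other copies bind to these probes was likewise not tested.

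RPL22L1 was the RP gene with the clearest difference between ages. It encodes a paralog of RPL22, a large subunit protein that binds RNA. Its levels were 6.19, 7.16, 7.26, 7.32, 7.55 and 7.73 in L arrays and 6.47, 6.55, 6.81, 6.89 and 7.14 in M arrays. The 7 H arrays held 6.28, 6.79, 6.84, 7.00, 7.01, 7.08 and 7.14. In R, the 19 arrays ran from 5.57 to 6.86 with a median of 6.32.

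Of the L arrays 5 of 6 lay above every R array, of the M arrays 2 of 5 and of the H arrays 4 of 7. The low L array was that of pig 17 and the low H array that of pig 6. RPL22L1 rose by 0.95 in L relative to R (1.94-fold, SE 0.17, limma q = 0.0111) and by 0.62 in H relative to R (1.54-fold, SE 0.16, q = 0.0313). The difference of M from R was 0.52 (SE 0.18, q = 0.815). Averaged over the diets, 63 dpn lay 0.70 above 28 dpn (SE 0.12, q = 0.00163).

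By the brightest probe set of each gene, RPL22L1 was the only RP gene called in L or H against R, and none was called in M. Among the other probe sets, 1 of RPL19, with a mean level of 7.63, was called in H against R (0.47, q = 0.0434) and at 63 dpn against R (0.45, q = 0.0136), and it differed from R by 0.56 in L (q = 0.112) and by 0.34 in M without a call there. The brightest RPL19 probe set differed from R by 0.31 in L and by 0.06 in H and was called in neither. By the brightest probe sets, 1 of 23 RP genes tested was called in L, where limma called 0.0249% of all probe sets, and 1 of 23 in H, where it called 2.09%. In M it was 0 of 23 against 0.0178%, with 5 of 62 RP genes at an unadjusted P under 0.05 (limma). Without moderation of the variances the count for M was also 0. Between all 63 dpn arrays and R 2 RP genes were called, against 0.901% of probe sets.

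The call of RPL22L1 depended on the pairing of pigs, on single arrays and on the probe set. With each pig as a block it was lost in L (0.70, q = 0.508), and with array weights it was lost in H (0.57, q = 0.0645). In L it was lost without the array of pig 4, 10 or 14 (q = 0.0800 to 0.127). In H it was lost without the array of pig 9, 11, 12, 15 or 18 (q = 0.0502 to 0.128), and with the arrays of pigs 11 and 12 both left out the difference was 0.61 (q = 0.178). A second RPL22L1 probe set, with a mean level of 3.11, differed from R by 0.0092 in L, by 0.16 in M and by -0.14 in H (q = 0.859, 0.999 and 0.334). With the mean of both probe sets the differences were 0.48 in L (q = 0.0640) and 0.24 in H (q = 0.124).

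Compared with the same pig at 28 dpn, RPL22L1 was higher at 63 dpn in 17 of 18 pigs. The mean own change was 0.70 in 6 L pigs, 0.82 in 5 M pigs and 0.67 in 7 H pigs. The largest own changes were 1.53 in the M pig 13 and 1.51 in the H pig 9, and the lowest, -0.04, was that of the L pig 17. At 28 dpn, before the diets, the pigs assigned to M already lay 0.46 below those assigned to L (SE 0.20, q = 0.753), and those assigned to H 0.30 below L (SE 0.19, q = 0.265). Own changes of the diets thus lay closer together than their differences from R, and the change with age in H differed from that in L and M by -0.04 (SE 0.24, q = 0.513).

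**Figure D2:**
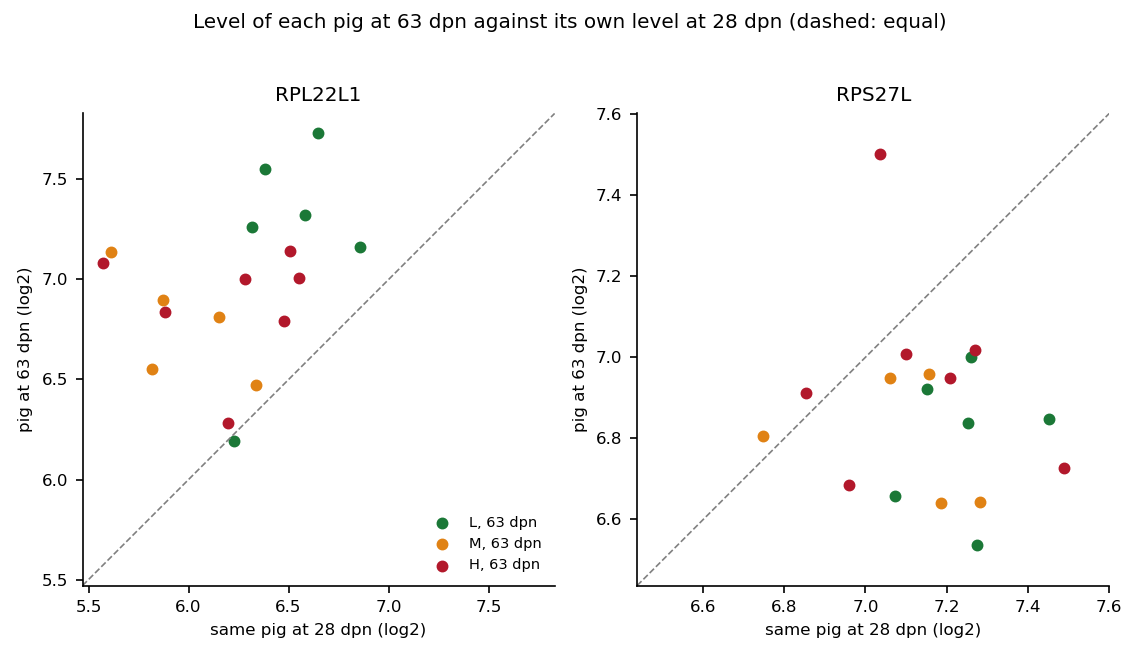
Level on the log2 scale of each of 18 pigs at 63 dpn (y axis) against its own level at 28 dpn (x axis) for RPL22L1 and RPS27L, coloured by diet, with the dashed line at equal levels. For RPL22L1, 17 of 18 pigs lie above the line, and for RPS27L 15 of 18 lie below it.

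RPS27L, a paralog of the small subunit protein RPS27 that p53 induces in human cells, was the second RP gene called between the ages. Its levels were 6.54, 6.66, 6.84, 6.85, 6.92 and 7.00 in L arrays and 6.64, 6.64, 6.81, 6.95 and 6.96 in M arrays. H arrays held 6.68, 6.73, 6.91, 6.95, 7.01, 7.02 and 7.50, and R arrays ran from 6.75 to 7.49 with a median of 7.16. All groups overlapped with R, but no L or M array reached the R mean of 7.15, and in H only pig 9 exceeded it. RPS27L fell by 0.30 at 63 dpn relative to R (SE 0.071, limma q = 0.0254).

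For the single diets the log2 differences were -0.35 in L (SE 0.10, q = 0.164), -0.36 in M (SE 0.11, q = 0.778) and -0.19 in H (SE 0.096, q = 0.186), none of which passed. The own change was negative in 6 of 6 L, 4 of 5 M and 5 of 7 H pigs. The age call was lost with arrays centred on their medians (q = 0.0576) and with each pig as a block (q = 0.0905). The change with age in H differed from that in L and M by 0.21 (SE 0.15, q = 0.222).

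No other paralog was called, nor was any gene that they derive from. Of 5 paralogs on the array 3 passed the filter, and of 7 parent genes 2, so the rest could not be called in the main fit. In the fit without filter the counts of called RP genes were the same, 1 in L, 0 in M and 1 in H. RPL36AL, at a mean level of 9.44, differed from R by -0.09 in L, -0.17 in M and 0.02 in H, and its parent RPL36A failed the SD filter. RPL10L, known as a testis gene in mice and humans, had a level of 8.69, with differences of 0.23 in L, 0.04 in M and -0.04 in H. That level comes from 1 probe set, while the parent RPL10 was read at 4.83. Whether the RPL10L probe set also detects mRNA of RPL10 was not tested. RPL26L1 (6.01) differed by -0.06 in L, -0.08 in M and 0.06 in H, and its parent RPL26 by 0.19 in L, -0.05 in M and -0.11 in H. RPS27, the parent of RPS27L, lay at 10.55 and differed from R by 0.06 in L, 0.01 in M and 0.15 in H. Like RPS27, the parents RPL7 (9.33), RPL39 (7.26) and RPL3 (7.70) missed the SD filter.

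**Figure D3:**
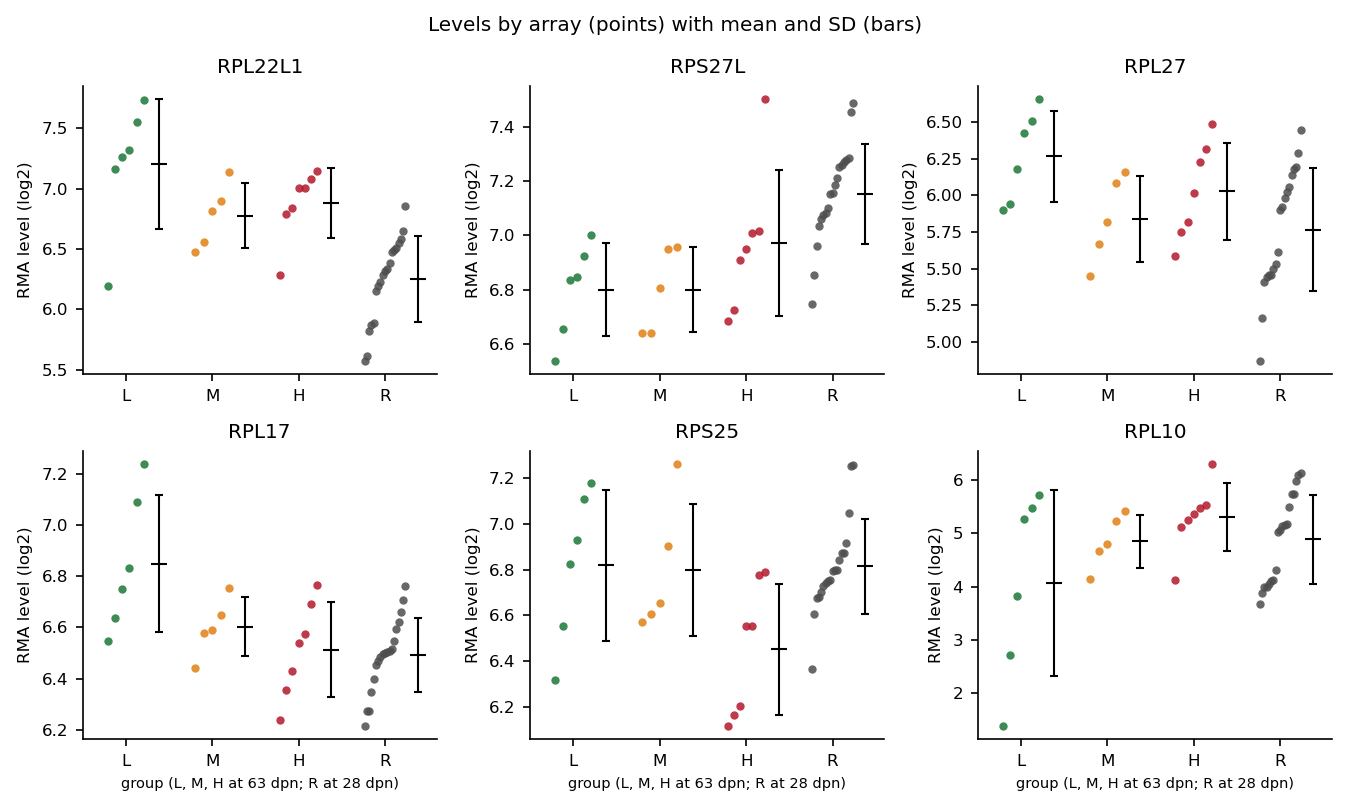
RMA level on the log2 scale of 6 RP genes in every array (points) of L, M and H at 63 dpn and of R at 28 dpn, with the mean and SD of each group beside them. For RPL22L1 5 of 6 L arrays lie above all R arrays, RPS25 is low in several H arrays, and RPL10 falls to 1.37 in an L array.

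The genes around the exit tunnel had positive differences in L. RPL17, RPL19, RPL26, RPL35 and RPL39 were on the array, of 8 listed, and all 5 lay above R in L, by a median of 0.28, against a median of -0.011 over all probe sets. Of all 62 RP genes 44 lay above R in L, with a median of 0.098. The L array of pig 4 had the highest mean level of the 5 genes, at 7.84. In M the 5 had a median of 0.0052 and in H of 0.019. RPL17 levels ran from 6.55 to 7.24 in L arrays with a median of 6.79 and were 6.44, 6.58, 6.59, 6.65 and 6.76 in M arrays. They ran from 6.24 to 6.77 in H with a median of 6.54, and from 6.22 to 6.76 in R with a median of 6.50.

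The L arrays of RPL17 lay highest in pigs 4 and 14 but overlapped with R. Its difference from R in L was 0.36 (SE 0.086), with q = 0.149 in the fit without filter, second to RPL22L1 among the RP genes of this comparison by P. RPL35 had levels of 8.37 to 8.89 in L with a median of 8.55, whereas M held 8.14, 8.17, 8.29, 8.34 and 8.49. H ran from 7.84 to 8.32 with a median of 8.14, so that every H array lay below every L array, and R ran from 7.83 to 8.67. RPL35 differed by -0.45 between H and L (SE 0.12, limma q = 0.441) and by 0.28 between L and R (SE 0.10, q = 0.323). Before the diets, its R arrays ran from 8.02 to 8.67 in pigs assigned to L and from 7.83 to 8.42 in those assigned to H. The own change averaged 0.15 in L, -0.02 in M and -0.03 in H pigs. Own changes of L and H pigs thus lay closer together than the levels of these groups.

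In the stalk, RPLP0, RPLP1, RPLP2 and RPL12 recruit elongation factors to the large subunit. RPLP0 levels ran from 12.45 to 13.002 in L with a median of 12.62 and were 12.16, 12.55, 12.65, 12.66 and 12.81 in M. They ran from 12.30 to 12.74 in H with a median of 12.57, and from 12.50 to 13.27 in R with a median of 12.78. Every H array of RPLP0 lay below the R mean, although both groups overlapped. The differences from R were -0.13 in L, -0.22 in M and -0.21 in H, and the 63 dpn difference of -0.19 had an unadjusted P of 0.00604 (limma q = 0.167 without filter).

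RPLP1 differed from R by -0.17 at 63 dpn (SE 0.080, q = 0.271), and RPL12 by 0.28 in L (SE 0.11, q = 0.362). In H all 4 stalk genes lay below R, between -0.21 and -0.08. The own change of RPLP0 was negative in 16 of 18 pigs, with means of -0.11 in L, -0.24 in M and -0.23 in H pigs. No stalk gene was called in any comparison, and RPLP0 missed the SD filter of the main fit.

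RPL5 and RPL11 form with 5S RNA a particle that binds MDM2, the inhibitor of p53, when ribosome assembly fails. RPL5, at a level of 10.72, differed from R by 0.18 in L, -0.01 in M and 0.13 in H. RPL11, at 3.15 near the background controls, differed by 0.10 in L, 0.29 in M and 0.0097 in H. RPL11 was not called, and RPL5 missed the SD filter. Of 9 RP genes listed as mutated in Diamond-Blackfan anemia 8 were on the array and 1 passed the filter, and 0 were called, with 3 of 8 at an unadjusted P under 0.05 in L (8.49% of all probe sets), 1 in M (4.73%) and 0 in H (16.1%). Their median difference from R was 0.13 in L, -0.0088 in M and -0.020 in H.

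RPL27 and RPS25 varied more between groups than most RP genes without passing the test. RPL27, a large subunit protein, ran from 5.90 to 6.66 in L with a median of 6.30 and stood at 5.45, 5.67, 5.82, 6.08 and 6.16 in M. It ran from 5.58 to 6.49 in H with a median of 6.02, and from 4.87 to 6.44 in R with a median of 5.90. All 6 L arrays lay above the R mean of 5.77, and the difference was 0.50 (SE 0.17, q = 0.269). At 28 dpn the pigs assigned to M already differed from those assigned to L by -0.48 (q = 0.753), and those assigned to H by -0.46 (q = 0.142), and the own change averaged 0.18 in L, 0.18 in M and 0.40 in H pigs.

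RPS25 is needed in yeast and human cells for initiation at internal ribosome entry sites. Its L arrays ran from 6.32 to 7.18 with a median of 6.88, and M arrays held 6.57, 6.61, 6.66, 6.90 and 7.26. H arrays held 6.12, 6.17, 6.21, 6.55, 6.56, 6.77 and 6.79, and R ran from 6.37 to 7.26 with a median of 6.80. No H array reached the R mean of 6.81, with the lowest values in pigs 3, 12 and 6. The difference of H from R was -0.36 (SE 0.12, limma q = 0.0686), beside 0.0046 in L and -0.01 in M.

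The own change of RPS25 was below 0 in 7 of 7 H pigs, by -0.49 on average, and averaged 0.06 in L and 0.11 in M pigs. The change with age in H differed from that in L and M by -0.56 (SE 0.18, q = 0.0669). Before the diets, R arrays ran from 6.60 to 7.26 in pigs assigned to H. They ran from 6.67 to 6.87 in pigs assigned to L and from 6.37 to 6.92 in those assigned to M. The highest R arrays, at 7.26, 7.25 and 7.05, were all of pigs assigned to H. The own changes in H and the value of -0.56 therefore also rest on high levels before the diets. With each pig as a block RPS25 was called in H against R (q = 0.0290). A second RPS25 probe set, at a mean level of 4.60, differed from R by -0.018 in H.

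Beside these, the most negative differences of H from R were those of RPS9 (-0.27, SE 0.15), RPS20 (-0.27, SE 0.13), RPL24 (-0.21, SE 0.11), RPLP0 and RPS21 (-0.20, SE 0.16). RPS9 and RPS20 are core proteins of the small subunit, and RPL24 forms a bridge between the subunits. The most positive ones after RPL22L1 were 0.44 for RPL10 (SE 0.39), 0.26 for RPL27, 0.16 for RPS4, 0.15 for RPS27 and 0.13 for RPL5. None of these was called, and RPLP0, RPS4, RPS27 and RPL5 missed the SD filter. At 63 dpn relative to R, RPS9 had a difference of -0.29 (SE 0.11, q = 0.161), RPS16 of -0.14, RPL10 of -0.13, RPL17 of 0.16, RPS4 of 0.15, RPL11 of 0.13 and RPL19 of 0.13.

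**Figure D4:**
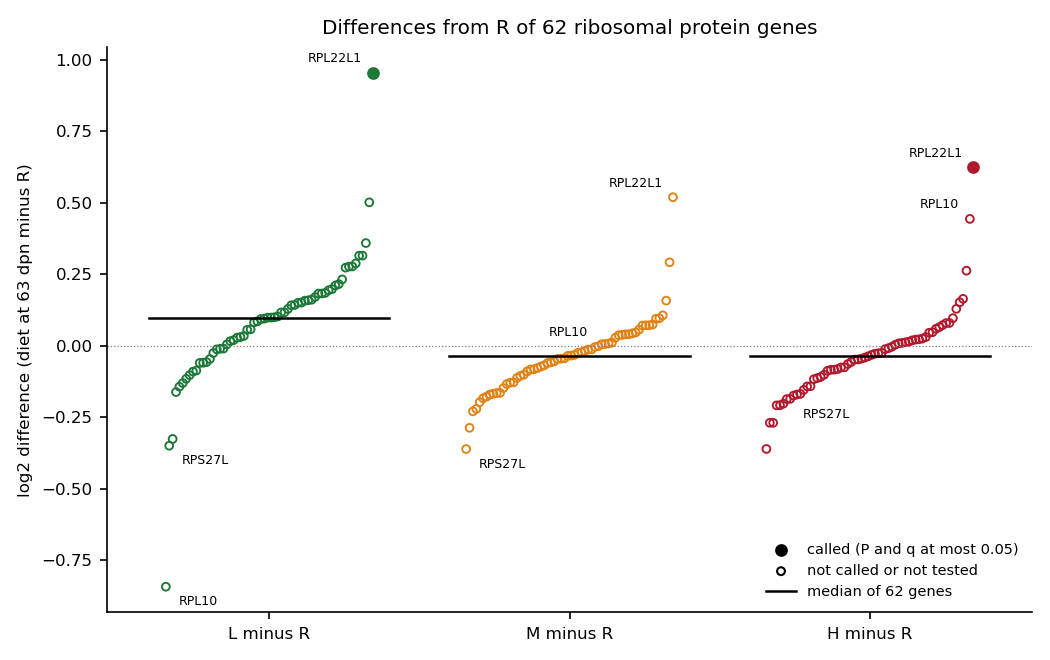
Log2 differences from R of all 62 RP genes in L, M and H at 63 dpn, each column ordered by size, with filled points for genes called by limma and a line at the median. The medians lie at 0.098 in L, -0.035 in M and -0.035 in H, and RPL22L1 is the filled point in L and in H.

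Over all 62 genes, the median log2 difference from R was 0.098 in L, with 44 genes above 0, against a median of -0.011 over all probe sets, of which 46.7% lay above 0. In M it was -0.035 with 22 genes above 0, against 0.0012 and 50.3%, and in H -0.035 with 24 above 0, against -0.021 and 44.9%. Large and small subunits lay close together, with medians of 0.11 and 0.089 in L, -0.022 and -0.060 in M and -0.015 and -0.051 in H. Within 0.25 of R lay 50 of 62 RP genes in L, against 88.7% of all probe sets, 58 in M, against 90.3%, and 56 in H, against 83.8%.

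In L 14 RP genes were higher and 2 lower than R at an unadjusted P under 0.05 in the fit without filter, 25.8% of the 62. The same rule held for 8.49% of all probe sets, 4.94% higher and 3.55% lower. In M 2 were higher and 3 lower (8.06% of RP genes, against 4.73% of probe sets, 2.54% higher and 2.19% lower). In H 1 was higher and 5 lower (9.68%, against 16.1%, 8.99% higher and 7.1% lower). For 63 dpn as a whole 4 were higher and 4 lower (12.9%, against 11.6%). RP genes vary together between arrays, as described further on, so that these genes are not independent observations.

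The shift in L rested partly on pig 4, whose L array had the highest mean level of the 62 genes. Without it 6 RP genes were higher and 3 lower than R at an unadjusted P under 0.05 (14.5%, against 6.04% of all probe sets), and the median was 0.061, with 40 genes above 0. In H the median was 0.020 with 33 genes above 0 once the arrays of pigs 11 and 12 were left out, so that its sign depended on them. Pig 12, the lowest of all arrays in mean RP level, had the highest monocyte level. The part of cell makeup in these levels was not tested.

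Mean levels of the 62 genes by array overlapped between all groups. They ran from 8.56 to 8.89 in L (mean 8.68 ± 0.12, SD, n = 6), from 8.45 to 8.68 in M (8.57 ± 0.083, n = 5), from 8.35 to 8.77 in H (8.57 ± 0.13, n = 7) and from 8.47 to 8.77 in R (8.60 ± 0.088, n = 19). Each pig compared with itself, the mean RP level was higher at 63 dpn in 12 of 18 pigs, with mean changes of 0.026 in L, -0.0038 in M and 0.0049 in H.

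**Figure D5:**
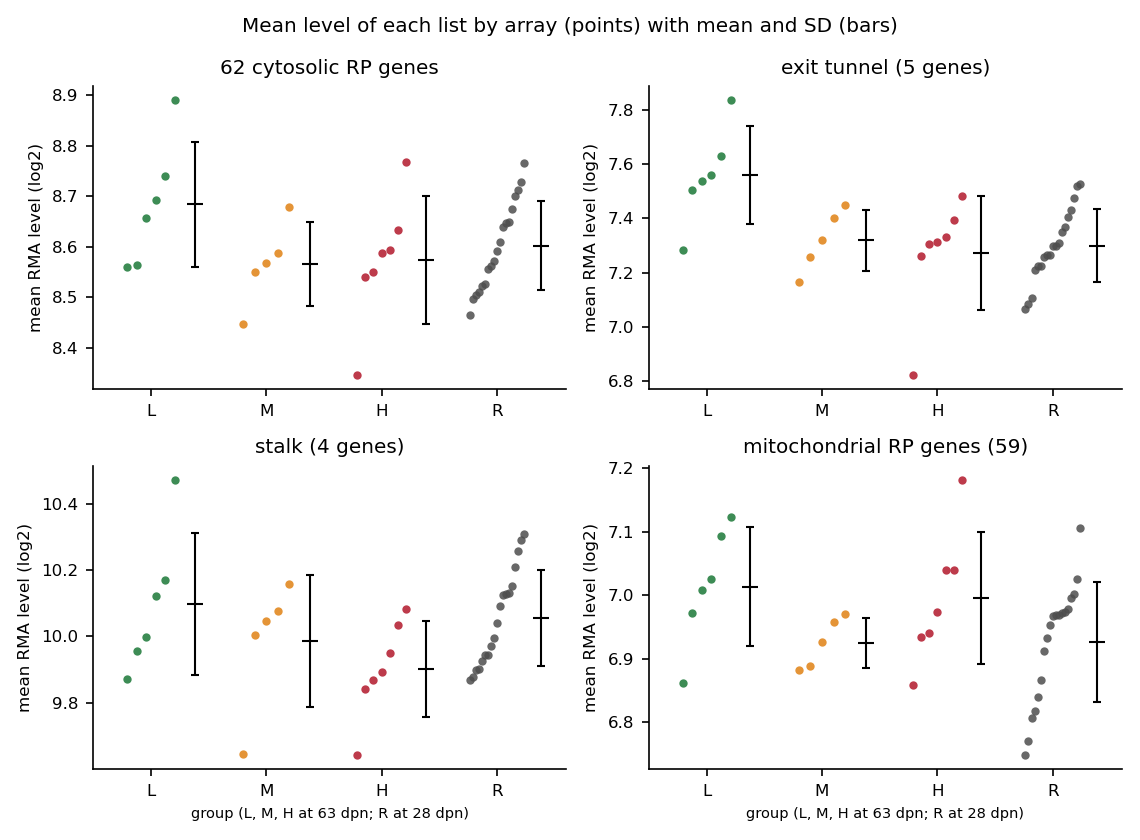
Mean log2 level per array (points) of the 62 RP genes, of the exit tunnel and stalk genes among them and of 59 mitochondrial RP genes in L, M, H and R, with the mean and SD of each group. The RP means run from 8.35 to 8.89 and the groups overlap in each panel.

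Between the diets at 63 dpn, limma called 0 of 23 RP genes in H against L, H against M, M against L and H against L and M, and 0% of all probe sets in each. The count was also 0 with unmoderated variances. At an unadjusted P under 0.05, 14 RP genes differed between H and L, 1 higher and 13 lower in H, 22.6% of the 62 against 7.23% of all probe sets (4.11% higher and 3.12% lower). Between H and M it was 1 RP gene, lower in H, against 8.72% of all, between M and L 9, all lower in M, against 3.45%, and between H and the mean of L and M 8, all lower in H, against 10.1%.

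The median RP difference was -0.13 for H against L, with 11 of 62 genes above 0, -0.13 for M against L with 8 above 0, and 0.014 for H against M with 36 above 0. Over all probe sets these medians were -0.011, 0.0048 and -0.015. Without the L array of pig 4 the H against L median was -0.084 with 9 RP genes at an unadjusted P under 0.05 (14.5%, against 7.77% of all probe sets), and the M against L median -0.072 with 3 such genes (4.84%, against 2.75%). Without the H arrays of pigs 11 and 12, the H against L median was -0.054 with 12 such genes (19.4%, against 4.25%). The lowest P of H against L belonged to RPL35, RPL17, RPL35A (-0.26), RPL24 (-0.39), RPL12 (-0.35) and RPL10L (-0.27), RPL35A and RPL24 picked here for their low P. All of these belong to the large subunit, as do 38 of the 62 RP genes. The H against L medians of the subunits lay close together, at -0.14 for the large (7 of 38 genes above 0) and -0.12 for the small (4 of 24).

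The pigs of the 3 diets did not differ in a called RP gene at 28 dpn. Limma's F test called 0 of 23 RP genes and 0% of all probe sets there, with 4 of 62 RP genes at an unadjusted P under 0.05 (RPL27, RPL32, RPL3 and RPL23, listed for their P), against 11.9% of all probe sets. Before the diets, pigs assigned to H nevertheless had a median RP difference of -0.090 from those assigned to L, with 20 of 62 genes above 0, and 1 gene was higher and 9 lower at an unadjusted P under 0.05, where 17.6% of all probe sets passed. Pigs assigned to M differed from those assigned to L by a median of -0.069, with 12 genes above 0, and 2 of 62 genes were lower at an unadjusted P under 0.05, against 6.53% of all probe sets. Over all probe sets these medians were 0.023 and 0.014. The medians of H and M against L were thus below 0 before the diets as well as at 63 dpn. For the change with age in H against that in L and M, 0 of 23 RP genes and 0% of all probe sets were called. Here 5 of 62 RP genes had an unadjusted P under 0.05, against 19.1% of all probe sets, and the median was -0.0091. The lowest q belonged to RPS25, and RPS20 followed with a difference of -0.51 (SE 0.19, q = 0.0819).

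RP genes varied together between arrays. After group and sex had been taken out of each gene, the correlation over 37 arrays averaged 0.214 over the 1891 pairs of RP genes, and 80.8% of pairs were above 0. It averaged 0.338 among the 41 genes with a mean of 7 or more and 0.0688 among the 21 others, 0.16 among 59 mitochondrial RP genes and 0.00149 over all probe sets. The highest values joined RPL21 with RPS26 (0.839) and RPL21 with RPS19 (0.830), and the lowest RPL11 with RPS27 (-0.577). RPS19 (0.379), RPS6 (0.377) and RPL7 (0.360) had the highest mean correlation with the other RP genes, whereas RPL11 (-0.146), RPS20 (-0.050) and RPS4X (-0.044), all among the dimmest, had the lowest. These values describe the arrays, which share hybridisation and normalization, and genes were named here after their values had been seen.

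Other genes of the translation machinery showed few calls. RPSA, an RP gene with another kind of symbol, lay at 11.14 and differed from R by -0.04 in L, -0.14 in M and -0.21 in H (SE 0.088), and FAU, the other one on the array, lay at 2.57. Of 9 elongation factor genes, 4 of which passed the filter, 0 were called in any diet against R, with 4 at an unadjusted P under 0.05 in L, 0 in M and 3 in H, beside shares of all probe sets of 8.49% in L, 4.73% in M and 16.1% in H, which hold for the lists that follow too. EIF5A, which helps the ribosome through stretches of proline, differed from R by 0.44 in L (q = 0.284), 0.28 in M and 0.33 in H (q = 0.141). EEF1G, a subunit of the factor that reloads EEF1A, differed by -0.35 in H (SE 0.12, q = 0.0847).

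Of 10 subunits of the initiation factor eIF3 and 18 other initiation factor genes, 3 and 10 of which passed the filter, 0 were called in L, M or H. At an unadjusted P under 0.05 it was 3 eIF3 genes in L, 0 in M and 0 in H, and 5 of the other factors in L, 1 in M and 5 in H. EIF1, which guards the choice of the start codon, had differences of -0.46 in L, -0.28 in M and -0.49 in H (SE 0.19, q = 0.108). EIF5, which acts at the same step, had -0.33 in L, -0.21 in M and -0.38 in H (SE 0.13, q = 0.0796).

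Among 17 other genes with TOP mRNAs, 4 of which passed the filter, 1 was called in H, VIM, the intermediate filament protein of leukocytes, which rose by 0.43 (SE 0.11, q = 0.0377). The call in H was lost without the R array of pig 6, 8, 9 or 13 or the H array of pig 9, 11, 12 or 15. For 63 dpn as a whole against R, 1 gene of this list was called higher too, a count kept in 15 of 37 fits without 1 array. The largest difference from R in the list was 0.30 in L and 0.27 in M, where 0 genes were called. Monocyte markers had a median difference of 0.55 in H, with 14 of 15 above 0 and 12 at an unadjusted P under 0.05, and their part in the VIM value was not tested. NACA, which binds nascent chains at the exit tunnel, differed by -0.18 in L, -0.21 in M and -0.19 in H. Of 16 genes that control ribosome synthesis, 9 of which passed it, 1 was called in H, RPS6KA3, a kinase that phosphorylates the ribosomal protein RPS6, which rose by 0.35 (SE 0.094, q = 0.0456). The number of calls in this list stayed at 1 in 17 of 37 fits without 1 array. It was 0 without the R array of pig 2, 3, 5, 6, 8, 9, 11, 13, 15, 17 or 18, the L array of pig 1 or 14, the M array of pig 16 or the H array of pig 3, 9, 11, 12 or 15. EIF4EBP2, an mTOR target that holds back initiation, differed by 0.44 in L (q = 0.214) and 0.36 in H (q = 0.0867).

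Of 28 ribosome biogenesis genes and 18 genes of RNA polymerase I and its factors, 9 and 6 of which passed the filter, 0 were called in L, M or H. At an unadjusted P under 0.05 it was 1 biogenesis gene in L, 1 in M and 3 in H, and 4 polymerase genes in L, 1 in M and 3 in H. Mitochondrial RP genes, 59 on the array and 19 past the filter, had 0 calls, with 8 of 59 at an unadjusted P under 0.05 in L (8.49% of all probe sets), 2 in M (4.73%) and 11 in H (16.1%). Their median differences from R were 0.089 in L, -0.0045 in M and 0.061 in H, beside 0.098 in L, -0.035 in M and -0.035 in H for the cytosolic RP genes. The difference between these lists was not tested.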

How the data were processed

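RNA of PBMC from 19 pigs was hybridised by the authors to porcine snowball arrays, 37 in all, with GCOS 1.1.1 named in the processing notes of the submitters. The deposited values are log2 RMA levels, made by the authors with background correction, quantile normalization and probe set summaries, and were used as they stand. RMA brings all arrays to the same distribution, so a shift shared by most genes would not show. All columns were matched to samples (0 unused). Diet, age, pig and sex came from the labels. Sire and litter are not in the labels used here and did not enter the fit. Genome build and positions are not given in the sources used here.

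Group (L, M, H at 63 dpn, R = all 28 dpn arrays) and sex were fitted to all 37 arrays in R 4.3.3 with limma 3.58.1 (lmFit, eBayes), and a fit with diet by age as 6 groups gave the F test at 28 dpn and the test of unequal age changes. The 123 control probe sets were left out, and SD above 0.23 and mean above 2.5 left 28086 of 47722. Storey q values (lambda 0.05 to 0.95, spline with 3 degrees of freedom) were computed per comparison, and P and q of 0.05 or less made a call. SEs belong to this fit, or, for genes that missed the filter and for unadjusted counts, to one without it. The script was tested on simulated data. The number of arrays limits the precision.

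Pig numbers pair the arrays by their labels. Over all probe sets past the filter, deviations from group means correlated between -0.187 and 0.333 within pigs, over 0.1 in 7 of 18. For the RP genes alone the range was wider, from -0.475 in pig 20 to 0.683 in pig 10. Pairing by pig can therefore weigh more in RP genes than the whole-array values show. The study's model has no pig term, so the pig enters only as an alternative (replicate block). Other alternatives were Benjamini-Hochberg adjustment, no and a stricter filter (SD above 0.3, mean above 4), unmoderated variances, no sex term, only the groups compared, array weights, median centring, repeated quantile normalization, other probe sets and leaving out arrays. Unadjusted counts without the arrays of pigs 4, 11 or 12 were added after seeing the data.

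Members and lists were chosen with earlier results of these data known. Named are all called RP genes, the 6 highest and lowest means and SDs, the 6 largest increases and decreases at 63 dpn and in H, paralogs and their parents, stalk, 5S and exit tunnel genes, and up to 4 genes of lowest P in H of each other list. Others are named as chosen after their values were seen.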

Additional observations from a re-analysis of the deposited data

Results flagged for a closer look

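In 189 groups of 5 to 7 arrays, 1 array of the group stood far from the others in 16 cases, by the gap to its neighbour relative to the range of the group. Chance gives about 1 in 20 groups. In L, pig 17 was low in RPL22L1 at 6.19 (next array 7.16), pig 14 in RPL19 at 8.37 (8.98) and pig 20 in RPL28 at 4.84 (5.53), while pig 4 was high in RPS7 at 10.42 (9.86). In M, pig 13 was low in RPS7 at 9.28 (9.76), RPS9 at 9.86 (10.18) and RPS20 at 3.37 (3.83), and pig 16 in RPS18 at 8.90 (9.18), while pig 19 was high in RPL10A at 9.61 (9.24).

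In H, the array of pig 9 was high in 5 genes, with RPL32 at 9.29 (next array 8.90), RPS19 at 7.41 (6.96), RPS27A, which encodes ubiquitin joined to an RP, at 8.56 (8.06), RPS27L at 7.50 (7.02) and RPS3 at 12.53 (12.32). That of pig 12 was low in RPL19, at 7.32 (8.56), and that of pig 6 low in RPL22L1, at 6.28 (6.79). The mean level of the 62 RP genes stood apart in no group.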

How the results depend on the processing

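Under 51 alternatives, 37 of them leaving out a single array, the median RP difference moved from the reported value by less than the SD between arrays (0.10) in 458 of 458 values, which still let it run from -0.165 to -0.046 in H against L, from -0.159 to -0.063 in M against L, from 0.051 to 0.13 in L against R and from -0.069 to 0.020 in H against R, where it changed sign. It also changed sign in H against M (-0.035 to 0.070), H against L and M (-0.093 to 0.0044), 63 dpn against R (-0.020 to 0.031) and the unequal age changes (-0.050 to 0.050). Of the counts of called RP genes 487 of 508 were within 1.5 times the count reported, a total that includes the comparisons with 0 called RP genes. In L against R the count stayed in 11 of 14 alternatives and in 34 of 37 fits without 1 array. In H against R it stayed in 10 of 14 and 32 of 37, and for 63 dpn against R in 11 of 14 and 37 of 37. M against R and the comparisons between diets at 63 dpn had 0 called RP genes throughout, as had the F test at 28 dpn, which could not be fitted with pigs as fixed effects. With each pig as a fixed effect (replicate block, pairing the arrays of a pig) the count was 0 in L against R (RPL22L1 0.70, q = 0.508), 2 in H against R, where RPS25 joined RPL22L1, and 1 for 63 dpn against R. The count in L against R was 2 with array weights, where RPS27L was called (-0.41, q = 0.0418), and 0 with the mean of all probe sets. In H against R it was 0 with array weights (RPL22L1 0.57, q = 0.0645), with the mean of all probe sets and without the 63 dpn arrays of pigs 11 and 12. For 63 dpn against R it was 1 with a stricter filter, which RPS27L did not pass, and with median centring. With 1 array left out the counts ran from 0 to 1 in L against R, from 0 to 1 in H against R and from 0 to 2 for unequal age changes, where RP genes were called when pig 13 was left out at either age or pig 10 at 63 dpn. No called difference of RPL22L1 or RPS27L changed sign. The cause of these changes was not tested. Of the other lists, the calls of VIM and RPS6KA3 in H were lost with Benjamini-Hochberg adjustment, array weights, repeated quantile normalization, only the groups compared and without pigs 11 and 12, and that of RPS6KA3 also with no and a stricter filter.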
